A study of Mus musculus with 12 samples.

Results

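The genes described here are 34 genes of antioxidant defence, taken by symbol from a fixed list and matched to the gene identifiers of the deposited table through GENCODE names. All 34 matched 1 gene each, out of 54752 genes in the table, of which 36716 had at least 1 read in any library. They comprise 5 glutathione peroxidases, 4 superoxide dismutases and catalase, 7 peroxiredoxins and sulfiredoxin, 5 genes of the thioredoxin system, 4 of glutathione synthesis and reduction, 4 glutathione S-transferases, 4 genes of the Nrf2 and Keap1 pathway, and the methionine sulfoxide reductase Msra. The rule uses no measured value, but the genes were chosen with earlier results of these data known. All 34 had enough reads to be tested in every comparison.

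Poly(A) RNA of the cerebellar cortex, without the deep nuclei, was sequenced from male wild-type mice aged 12 weeks, F1 hybrids of C57BL6J and FVB. There were 12 libraries, 4 for each of 3 diets. AL mice ate without limit. DR mice were on dietary restriction, with a smaller daily portion reached in steps over the weeks before dissection, and they were killed early in the dark phase on a day on which the usual meal was withheld. KD mice are labelled as fed a ketogenic diet. The composition of that diet, its duration and the hour of dissection are not given in the sources used here, so feeding state at dissection and the type of diet cannot be told apart when KD is compared with DR. When DR is compared with AL, the restriction and the withheld meal cannot be told apart either. The labels name no animal for a library, and the libraries are taken here as 1 mouse each, so that the spread between KD libraries may include technical spread. Replicate numbers only name the mice and do not pair them.

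Cells remove reactive oxygen in a relay. Superoxide dismutases turn superoxide into hydrogen peroxide, which catalase, the glutathione peroxidases and the peroxiredoxins then break down. Glutathione and thioredoxin supply the electrons and are themselves reduced at the cost of NADPH, while the transcription factor Nrf2, held back by Keap1, switches on many of these genes through the antioxidant response element. Thioredoxin-interacting protein, encoded by Txnip, binds thioredoxin and blocks it, and its transcription is known to follow glucose through a carbohydrate response element.

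The promoters are shown first because both elements are short and can be read directly. RefSeq promoters (GRCm38.p6) were matched for 27 of the 34 genes, giving 33 promoters, and the 250 bases before each start were searched on both strands. The letters TGACNNNGC, the core of the antioxidant response element, which can overlap an AP-1 site, were found in 6 genes and in 18.2% of the 33 promoters, beside 10.2% of all 32851 promoters in the table. The 6 matches are given with 10 bases on each side, on the strand of the gene, with the match in capitals. In Nfe2l2 and Gstm5 the letters read along the gene, and in Gclm, Prdx1, Txnrd1 and Sod1 on the other strand.
Nfe2l2: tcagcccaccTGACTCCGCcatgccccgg
Gstm5: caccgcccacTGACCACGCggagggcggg
Gclm: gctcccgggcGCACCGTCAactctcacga
Prdx1: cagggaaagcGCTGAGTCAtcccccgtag
Txnrd1: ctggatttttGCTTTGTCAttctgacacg
Sod1: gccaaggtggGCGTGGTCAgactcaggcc

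Of the 27 genes, Txnip held the letters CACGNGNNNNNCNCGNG of a carbohydrate response element, which occur in 0.28% of all promoters of that length. The match began 85 bases before the start. Its 250 bases, chr3:96557707-96557956 on the plus strand of GRCm38.p6, are printed because Txnip is one of the genes whose level differed between diets, and the capitals mark the match.
Txnip: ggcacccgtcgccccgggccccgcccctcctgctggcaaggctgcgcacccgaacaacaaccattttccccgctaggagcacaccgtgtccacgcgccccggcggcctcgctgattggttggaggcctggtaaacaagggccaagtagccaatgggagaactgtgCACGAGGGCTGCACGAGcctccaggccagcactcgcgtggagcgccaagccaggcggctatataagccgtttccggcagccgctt
The same stretch held the letters GNACANNNTGTNC of a glucocorticoid response element 172 bases before the start, a motif that reads the same on both strands and occurs in 0.387% of all promoters. Such matches describe the sequence and are not evidence that a factor binds there.

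Each library held from 31712084 to 40798644 reads counted on genes (median 36674269). Totals did not differ between diets by more than the spread between mice in two-sided exact permutation tests (p = 0.6 for DR against AL, 0.8 for KD against AL and 0.2571 for KD against DR, where 4 mice against 4 allow no p under 0.0286). The gene with the fewest reads, Gpx7, had at least 37 in every library. The tissue label was checked against marker genes. Levels are given as CPM, counts per 1000000 reads scaled with edgeR's TMM factors, and the summed levels of 8 granule cell markers were 6298 ± 248 on AL, 6445 ± 63.5 on DR and 6422 ± 148 on KD (SD, n = 4 each). Of 8 choroid plexus markers, Folr1, Kl, Kcne2 and Aqp1 had means under 1 CPM, and Otx2 (12.6 CPM), Clic6 (8.09), Slc4a5 (3.47) and Ttr (1.64) were higher.

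To compare genes with each other, CPM were divided by exonic length. The antioxidant genes spanned a 68.6-fold range of CPM per kilobase. Over all mice the most abundant per length were the glutathione S-transferases Gstm1 (85.7 CPM per kilobase) and Gstp1 (78.0), which couple glutathione to reactive compounds, then Gpx4 (74.8), the peroxidase that repairs oxidised membrane lipids, and Prdx5 (60.0), a peroxiredoxin. These were the 4 genes over 50 CPM per kilobase, and other genes overlap 19.1% of the exonic bases of Prdx5. Another 21 lay between 5 and 50, and 9 lay under 5, among them Gpx3 (1.80), Hmox1 (1.32) and Gpx7 (1.25). The leading genes of the other roles were Sod1, the cytosolic superoxide dismutase (20.9), Txn1, cytosolic thioredoxin (29.5), Gclc, the catalytic subunit of the enzyme that starts glutathione synthesis (15.97), Keap1 (7.92) and Msra (9.04). Sod2, the mitochondrial superoxide dismutase, had the most reads of the 34 but a long exonic sequence, and it ranked 17th per length. The levels of Gpx4 and Gstp1 are uncertain, since 48.4% and 52.8% of their 100-base exonic windows also occur in other genes, among them Gpx4-ps2 and Gstp2. For overlap with exons of other genes, all values of Prdx5, Gstm5 (13.9% of exonic bases), Prdx2 (11.5%) and Keap1 (10.9%) are uncertain too.

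**Figure D1:**
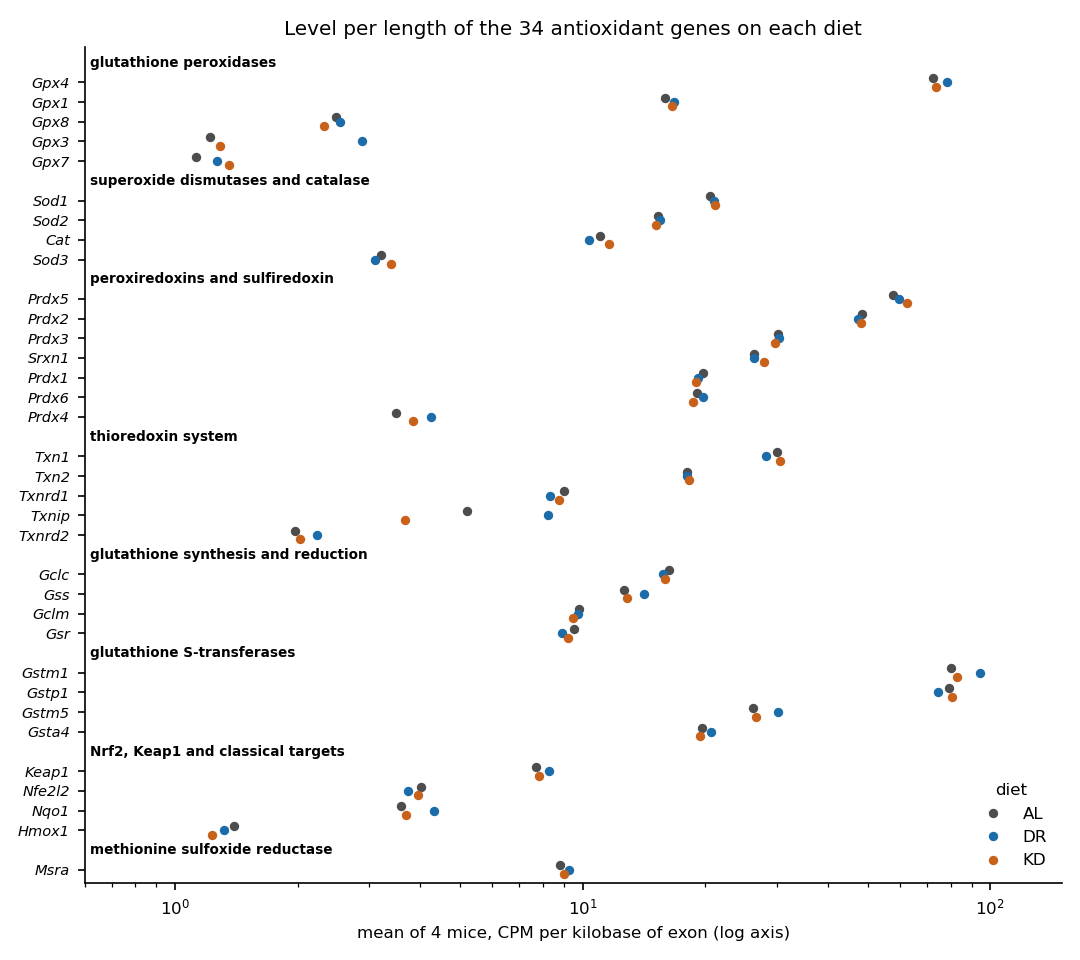
Mean level of each of the 34 antioxidant genes on AL, DR and KD (4 mice each), in CPM per kilobase of exon on a log axis, grouped by role. The 3 diets lie close together for most genes, and the dots stand apart most clearly for Gpx3 and Txnip.

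Summed over the 34 genes, the level was 1732 ± 67.8 CPM on AL, 1791 ± 71.2 on DR and 1746 ± 34.7 on KD (SD, n = 4 each). AL mice ranged from 1652 to 1796, DR mice from 1721 to 1888 and KD mice from 1703 to 1779, so the diets overlapped. By role, the glutathione S-transferases summed to 236 ± 15.5, 260 ± 12.2 and 242 ± 9.83 CPM, and the peroxiredoxins with sulfiredoxin to 549 ± 30.8, 554 ± 32.0 and 559 ± 17.8 CPM on AL, DR and KD (SD, n = 4 each). In bulk tissue, a change in the number of cells that express a gene and a change in RNA per cell cannot be told apart.

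The first comparison asked whether the antioxidant genes differed between DR and AL. Gpx3 and Gstm1 were higher on DR than on AL, and the other 32 genes did not pass the test. That makes 2 of 34 genes, both higher, beside 583 of 19052 genes tested in all, which is 3.06% (1.32% higher and 1.74% lower on DR), by the quasi-likelihood test of edgeR at an adjusted p (Benjamini-Hochberg, taken over every gene tested) under 0.05. Taking the unadjusted p instead, 7 genes were higher and 1 lower at a value under 0.05, beside 18.0% of all genes. In 5 genes (Gpx3, Gstm1, Gss, Prdx4 and Txnrd1) no AL mouse overlapped a DR mouse, beside 10.9% of all genes. The median log2 fold change (log2FC) of the 34 was 0.03 and the median size, without sign, 0.08, against 0.10 for all genes tested.

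Gpx3 encodes the secreted, plasma-type glutathione peroxidase, a selenoprotein (ENSMUSG00000018339.11, chromosome 11 of GRCm38.p6, 54902453 to 54910377, plus strand). No exon of another gene overlaps it. The AL mice had 2.59, 2.63, 1.72 and 1.90 CPM. The DR mice had 6.33, 5.27, 5.32 and 3.99 CPM. The KD mice had 2.42, 2.80, 1.64 and 2.50 CPM. Every DR mouse was thus above every mouse on the other diets, while the AL and KD mice covered the same range. DR exceeded AL 2.35-fold, a log2FC of 1.23 (standard error, SE, 0.17, 95% interval 0.87 to 1.59, edgeR adjusted p = 0.00143). The call was made in all 8 fits that left out 1 mouse. With at least 60 reads in every library Gpx3 was among the less abundant of the 34, and it was not kept when only genes over 10 CPM were tested.

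Markers of fibroblasts, vessels and choroid plexus were measured beside Gpx3. Summed levels of 10 markers of meningeal and perivascular fibroblasts, of which Col1a2 was the most abundant, were 77.2 ± 8.03 CPM on AL, 77.0 ± 11.2 on DR and 76.7 ± 6.90 on KD, and 0 of the 10 were called in any comparison with edgeR (at an unadjusted p under 0.05, 1 higher and 2 lower on DR than on AL, 1 lower on KD than on AL, and 1 higher and 1 lower on KD than on DR). Among them Slc6a13 was at 8.14 ± 2.02, 12.0 ± 2.04 and 9.26 ± 1.42 CPM on AL, DR and KD, with a log2FC of 0.55 on DR against AL (edgeR adjusted p = 0.0722) and -0.37 on KD against DR (0.105), highest on DR like Gpx3. Of the 10, 7 had a negative and 3 a positive log2FC on DR against AL, with a median of -0.08. Lum and Col3a1 were the 2 lower on DR than on AL at an unadjusted p, Lum with a log2FC of -0.69. Of 8 endothelial markers, led by Flt1, Itm2a was called lower on DR than on AL and higher on KD than on DR, and Pecam1 had a log2FC of 0.28 on DR against AL (edgeR adjusted p = 0.164). The 8 endothelial markers summed to 211 ± 12.2, 196 ± 1.35 and 217 ± 5.53 CPM and the 8 markers of pericytes and smooth muscle, led by Rgs5 and with 0 called, to 158 ± 2.80, 142 ± 6.26 and 147 ± 4.68 CPM on AL, DR and KD (SD, n = 4 each). Neither sum overlapped between AL and DR. AL mice ranged from 198.6 to 226.8 CPM and DR mice from 194.7 to 197.9 for endothelium. For pericytes and smooth muscle they ranged from 155.6 to 161.3 and from 134.6 to 149.9 CPM. The 8 choroid plexus markers summed to 27.5 ± 0.728, 26.4 ± 2.41 and 27.0 ± 3.74 CPM (SD, n = 4 each), led by Otx2 (12.6 CPM). Of the 5 with enough reads to test, Ttr was called higher on KD than on DR (log2FC 2.16). Between DR and AL 0 were called (0 at an unadjusted p under 0.05). On KD against AL 0 were called, with a log2FC of 2.21 for Ttr, and at an unadjusted p under 0.05 1 was higher and 2 lower. The sum thus does not follow Ttr. Of all genes, 1.32% were called higher and 1.74% lower on DR than on AL. On KD against DR the shares were 2.43% higher and 2.51% lower. At an unadjusted p under 0.05 they were 18.0% on DR against AL, 4.87% on KD against AL and 18.7% on KD against DR. The part of these cells in the values of Gpx3 was not tested.

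Gstm1 (ENSMUSG00000058135.12, chromosome 3, 108012255 to 108017973, minus strand) encodes a mu-class glutathione S-transferase. The AL mice had 129.5, 121.6, 107.9 and 112.9 CPM. The DR mice had 144.4, 137.0, 135.3 and 138.4 CPM. The DR mice lay close together and above every AL mouse, the lowest of them only a little above the highest AL mouse. The difference was 1.18-fold, a log2FC of 0.23 (SE 0.05, edgeR adjusted p = 0.032). It passed in 1 of the 8 fits that left out a mouse, the one without AL replicate 1, while the log2FC stayed between 0.19 and 0.29, with adjusted p up to 0.107 over the alternatives run. Of its exonic windows 7.73% also occur in Gstm2-ps1, Gm8834 or Gstm3, so part of its reads may be shared.

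Some markers of glia and Purkinje cells were lower on DR. Of 8 markers of Bergmann glia and astrocytes, 3 (Aqp4, Hopx and Gja1) were called lower on DR than on AL in edgeR's test and 0 higher, Aqp4 the most (log2FC -0.52, adjusted p = 0.000706). Of all genes, 1.74% were called lower on DR and 18.0% had an unadjusted p under 0.05, the background of each marker list here. Their sum, led by Aldoc, was 3949 ± 177 CPM on AL and 3730 ± 147 on DR, and the 2 diets overlapped. Of 8 oligodendrocyte markers, led by Mbp, 1 was called lower, 3 were lower at an unadjusted p under 0.05, and the median log2FC was -0.20, with sums of 2637 ± 313 CPM on AL and 2394 ± 249 on DR (SD, n = 4 each). Of 8 microglia markers 0 were called in edgeR's test (1 lower at an unadjusted p under 0.05). The 8 Purkinje cell markers, led by Itpr1, summed to 8522 ± 239 CPM on AL and 7408 ± 486 on DR (SD, n = 4 each), with 2 called lower and a median log2FC of -0.16. All 8 had a negative log2FC, and 6 were lower at an unadjusted p under 0.05. Their sums did not overlap, with AL mice from 8335 to 8873 CPM and DR mice from 6983 to 8064. The part of these shifts in the antioxidant values was not tested.

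**Figure D2:**
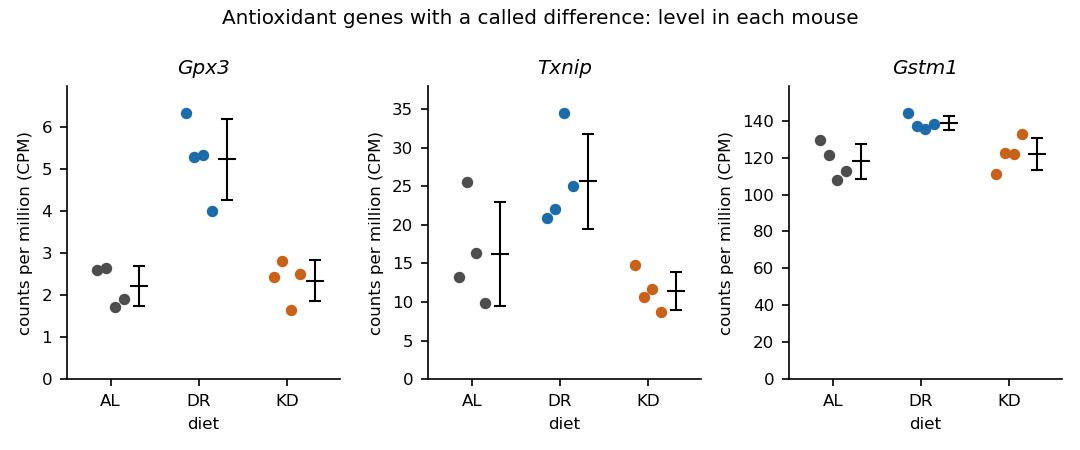
Level of Gpx3, Txnip and Gstm1 in each mouse on AL, DR and KD, in CPM with axes from 0; each dot is 1 mouse, and the bar beside the dots is the mean ± SD of 4 mice. The 4 DR mice lie between 3.99 and 6.33 CPM for Gpx3, above all AL and KD mice, whereas AL mice spread from 9.82 to 25.5 CPM for Txnip.

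Txnip (ENSMUSG00000038393.14, chromosome 3, 96557957 to 96561883, plus strand) varied most within a diet of all 34 genes. The AL mice had 13.3, 25.5, 16.4 and 9.82 CPM. The DR mice had 20.9, 22.0, 34.5 and 25.1 CPM. The KD mice had 14.7, 10.6, 11.7 and 8.73 CPM. AL replicate 2 stood within the range of the DR mice, and AL replicates 1 and 4 within that of the KD mice. Between DR and AL the log2FC of 0.65 (SE 0.22, 95% interval 0.19 to 1.12) had an edgeR adjusted p of 0.128 and was not called. Without AL replicate 2, or without the filter on low counts, it was. The fit without the filter gave far smaller adjusted p for some genes, so that call is uncertain. Exons of the antisense gene Gm15441 cover 19.4% of the exonic bases of Txnip, and the library kit did not keep strand, so the value is uncertain to that extent. Gm15441 itself had at most 0.179 CPM. The authors report strongly lower blood glucose on DR than on AL, whereas the mean of Txnip was higher on DR. The part of glucose in the values of Txnip was not tested.

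The remaining antioxidant genes had log2FCs between -0.11 and 0.29 on DR against AL. Of the 32 genes not called, 21 had a 95% interval wholly within 0.25 of 0 and 29 within 0.5, so larger shifts lay outside the interval for most of them. Gss, which completes glutathione synthesis, came nearest to the threshold, with 72.5 to 79.2 CPM in AL mice and 81.7 to 86.5 in DR mice, a log2FC of 0.17 and an adjusted p of 0.0601 in edgeR's test. It was called with DESeq2, with library size scaling, with all 12 libraries in 1 fit, when only genes over 10 CPM were tested and without AL replicate 3, and 15.4% of its exonic bases overlap other genes. Gstm5, another mu-class transferase, had a log2FC of 0.20 (adjusted p = 0.109). Prdx4, the peroxiredoxin of the endoplasmic reticulum, was at 6.14 to 8.109 CPM in AL mice and 8.108 to 9.55 in DR mice, so that the diets, apart in their own fit, just touched once scaled over all 12 libraries (log2FC 0.29, edgeR adjusted p = 0.136). Txnrd1, the cytosolic thioredoxin reductase, was the 1 gene lower at an unadjusted p, with a log2FC of -0.11 (edgeR adjusted p = 0.183).

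The classical Nrf2 readouts showed no call. Nqo1, a quinone reductase, was at 5.58 ± 0.878 CPM on AL, 6.69 ± 1.06 on DR and 5.73 ± 0.675 on KD (SD, n = 4 each), with adjusted p of 0.33 for DR against AL in edgeR's test. Hmox1, haem oxygenase, was at 2.45 ± 0.511, 2.31 ± 0.317 and 2.16 ± 0.391 CPM. Nfe2l2, which encodes Nrf2, and Keap1 had log2FCs of -0.10 and 0.10 on DR against AL (adjusted p = 0.494 and 0.406 in edgeR's test). Of the 6 genes with antioxidant response element letters, 0 were called in the main edgeR fit of any of the 3 comparisons. The shares of all genes called were 3.06% on DR against AL, 0.0% on KD against AL and 4.94% on KD against DR. At an unadjusted p under 0.05 Gstm5 was higher and Txnrd1 lower on DR than on AL, beside 18.0% of all genes. On KD against DR Gstm5 was lower at that value, beside 18.7% of all genes, and it was called when DR replicate 2 was left out.

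No superoxide dismutase, catalase or peroxiredoxin was called between DR and AL. On DR against AL, Sod1, Sod2 and Sod3 had log2FCs of 0.03, 0.02 and -0.05 and Cat of -0.09, and all 4 intervals lay within 0.25 of 0. Of the 7 peroxiredoxin and sulfiredoxin genes, 6 intervals did, Prdx4 being the exception. Gpx1, the main cytosolic glutathione peroxidase, had no call but the second widest spread within a diet. Its AL mice had 27.1, 28.5, 16.2 and 19.9 CPM, its DR mice 24.98, 30.3, 17.3 and 23.9 CPM and its KD mice 26.0, 20.4, 21.01 and 28.1 CPM. The means of the 3 diets were 22.9, 24.1 and 23.9 CPM, which differ by less than the range within any diet. Summed levels of 6 erythroid markers were 276, 388, 328 and 424 CPM in the AL mice, 196, 495, 238 and 177 CPM in the DR mice and 239, 270, 271 and 242 CPM in the KD mice. The part of blood in this spread was not tested.

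**Figure D3:**
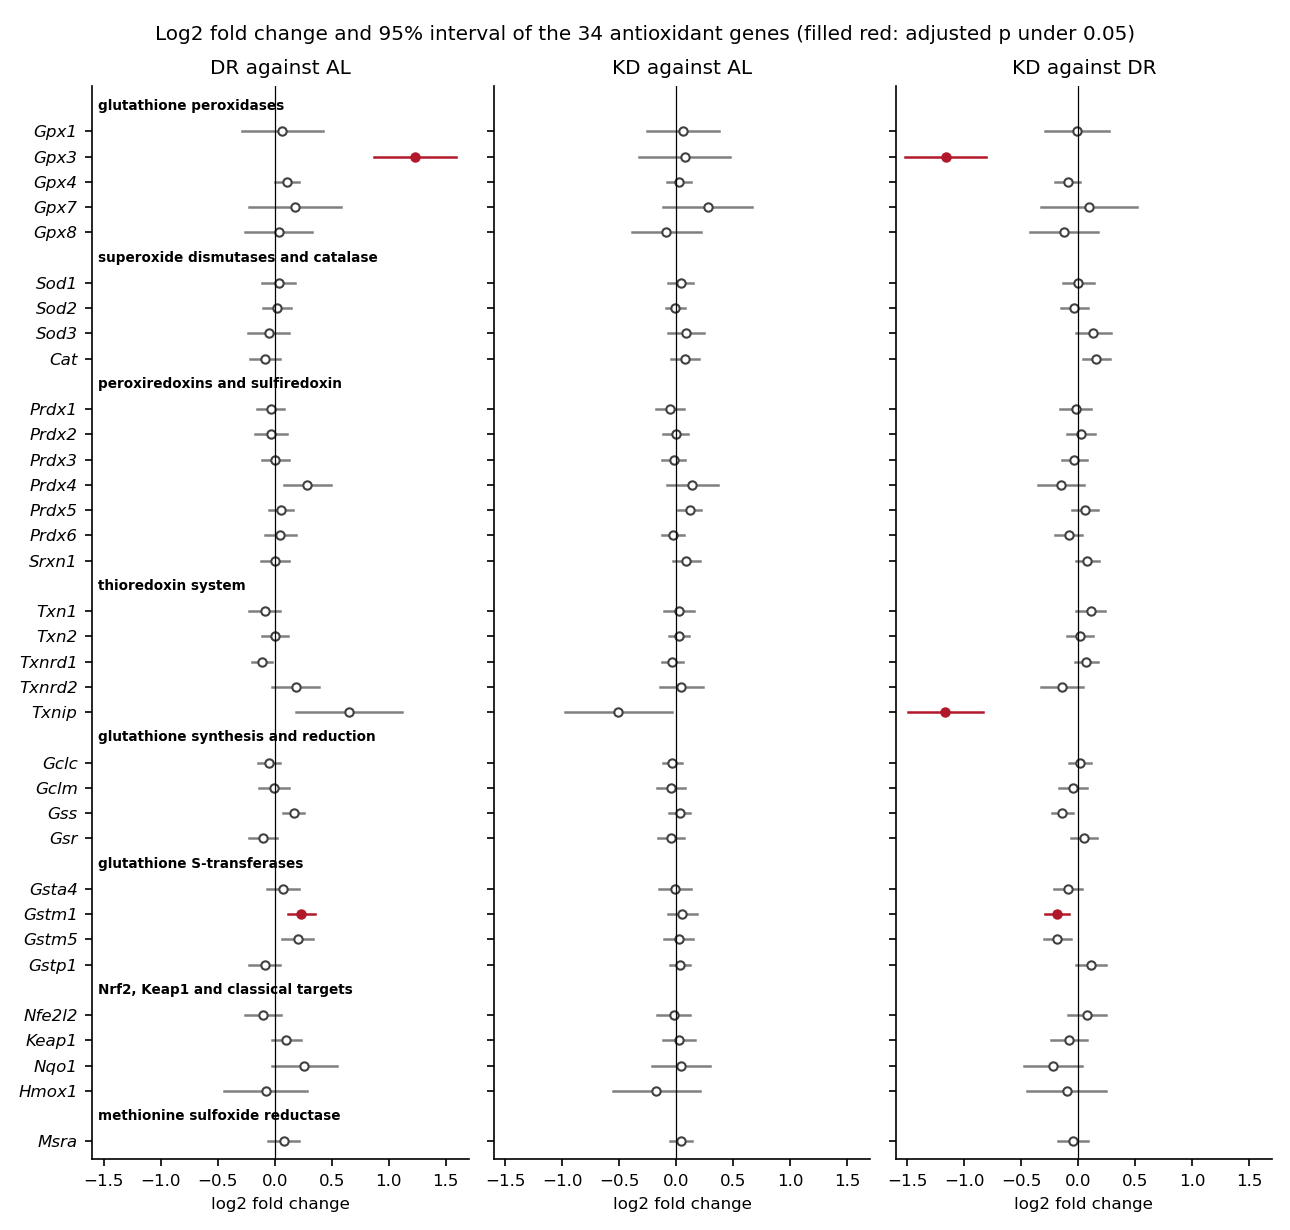
Log2 fold change of the 34 antioxidant genes in the 3 comparisons, grouped by role, with 95% intervals from edgeR's quasi-likelihood fit; filled red marks an adjusted p under 0.05. Gpx3 and Gstm1 are called on DR against AL and Gpx3, Txnip and Gstm1 on KD against DR, while most other intervals are short and span 0.

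The second comparison asked whether KD differed from AL. None of the 34 genes was called, and neither was any of the 19036 genes tested (0.0%) in edgeR's test. DESeq2 called 10 genes in all, 0 of them antioxidant genes. At an unadjusted p under 0.05, Prdx5 was higher (log2FC 0.12) and Txnip lower (-0.51, 95% interval -0.98 to -0.04), which is 2 of 34 genes beside 4.87% of all genes. The diets overlapped in all 34 genes, where 2.95% of all genes did not overlap. The median log2FC of the 34 was 0.02 and the median size 0.04, against 0.06 for all genes. Intervals within 0.25 of 0 held 26 of the 34 genes and intervals within 0.5 held 31. For Gpx3 the log2FC was 0.07, with a 95% interval of -0.33 to 0.47. The adjusted p of Txnip was 0.994 in edgeR's main fit. It was called lower on KD when no filter on low counts was applied, though it had at least 310 reads in every library. That fit gave Txnip an edgeR adjusted p of 2.4e-50 on KD against DR, beside 0.000448 in the main fit. Its call on KD against AL is therefore uncertain.

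The third comparison set KD against DR. It uses the same DR mice as the first, so the 2 are not independent. Gpx3, Txnip and Gstm1 were lower on KD, and no antioxidant gene was called higher. That makes 3 of 34 genes beside 942 of 19087 genes in all, 4.94% (2.43% higher and 2.51% lower on KD). At an unadjusted p under 0.05, 1 gene was higher and 5 were lower, beside 18.7% of all genes. The diets did not overlap in 5 genes (Gpx3, Txnip, Gstm1, Gss and Cat), beside 11.8% of all genes. Of 77 cell type markers tested, 9 were called higher and 1 lower on KD than on DR in edgeR's test. Among those higher were Car8 of Purkinje cells, Aqp4 and Hopx of Bergmann glia and astrocytes, Mag of oligodendrocytes and Fat2 of granule cells, and lower was Cbln3, also of granule cells. Their part in the values of the antioxidant genes was not tested.

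Txnip and Gpx3 had nearly equal differences. For Txnip, KD mice had 0.446 times the DR level, a log2FC of -1.16 (SE 0.15, 95% interval -1.49 to -0.84, edgeR adjusted p = 0.000448). The highest KD mouse, at 14.7 CPM, was below the lowest DR mouse, at 20.9. Gpx3 had a log2FC of -1.16 as well (SE 0.17, edgeR adjusted p = 0.00075), 0.447 times the DR level. Both were called in all 8 fits that left out a mouse. Gstm1 had 111.2, 122.4, 122.1 and 132.7 CPM in the KD mice, a log2FC of -0.19 against DR (SE 0.05, edgeR adjusted p = 0.0442). It was called in 1 of the 8 fits that left out a mouse, the one without KD replicate 4, and not with all 12 libraries in 1 fit, while the log2FC stayed between -0.23 and -0.14 in those 8 fits. Among genes not called, Cat was at 28.7 to 31.6 CPM in KD mice and 26.1 to 28.0 in DR mice (log2FC 0.16, edgeR adjusted p = 0.108). Gss had a log2FC of -0.14 (adjusted p = 0.0813) and Gstm5 of -0.18 (adjusted p = 0.0786) in edgeR's test. Gss was called lower on KD with library size scaling, and Gstm5 without DR replicate 2. In 21 of the 31 genes not called, the 95% interval lay within 0.25 of 0.

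The genes around this core were read from 8 further lists with 137 genes matched once, of which 123 were tested. On DR against AL, 3 were called higher and 1 lower, beside 1.32% and 1.74% of all genes. On KD against AL, 0 were called, and at an unadjusted p under 0.05 4 were higher and 3 lower, beside 4.87% of all genes. On KD against DR, 2 were called higher and 11 lower, beside 2.43% and 2.51% of all genes. These shares of all genes are also the background of the counts of each list. All 8 lists were chosen with earlier results of these data known, so the counts beside these shares are descriptive only. At an unadjusted p under 0.05 the background is 18.0% on DR against AL, 4.87% on KD against AL and 18.7% on KD against DR. The median log2FCs of the 123 genes were 0.02, 0.00 and -0.03, and the median sizes were 0.09, 0.05 and 0.10.

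Among the 20 tested genes of selenoproteins and selenocysteine synthesis, 2 were higher on DR than on AL, beside 1.32% of all genes, and 3 lower on KD than on DR, beside 2.51%. Selenom, a selenoprotein of the endoplasmic reticulum, was at 89.8 ± 2.15 CPM on AL, 110 ± 6.81 on DR and 93.3 ± 4.62 on KD (SD, n = 4 each), and all DR mice, from 102.7 CPM up, were above all others. Its log2FC was 0.29 on DR against AL (adjusted p = 0.00575) and -0.24 on KD against DR (adjusted p = 0.0141) in edgeR's test. Selenbp1, a selenium-binding protein, had log2FCs of 0.46 (adjusted p = 0.0169) and -0.37 (adjusted p = 0.0316). Selenop, the selenium transport protein, was called lower on KD than on DR (log2FC -0.26, edgeR adjusted p = 0.0316), in 1 of the 8 fits that left out a mouse, and 15.4% of its exonic bases overlap Ccdc152.

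Of the 14 tested genes of NADPH supply, Me1, the cytosolic malic enzyme, was the one called. It was at 39.0 ± 1.21 CPM on AL, 29.9 ± 0.823 on DR and 36.3 ± 1.71 on KD (SD, n = 4 each). The highest DR mouse, at 30.6 CPM, was below the lowest mouse of the other diets, at 34.2. The log2FC was -0.38 on DR against AL (adjusted p = 0.00107) and 0.28 on KD against DR (adjusted p = 0.00525) in edgeR's test, and both calls were made in all 8 fits that left out a mouse. In the relay this enzyme supplies reducing power. Its level moved opposite to that of Gpx3, and a link between the 2 was not tested. Of the 14 genes, 5 had a positive and 9 a negative log2FC on DR against AL. Idh2, not called, had the highest log2FC there (0.15) and the lowest on KD against DR (-0.15), the direction of Gpx3.

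Of the 8 tested alpha-arrestins and their glucose-sensing regulators, the family and pathway to which Txnip belongs, 1 was called. Arrdc2 was at 15.4, 16.3, 23.2 and 15.9 CPM in DR mice and at 8.94, 6.37, 6.59 and 6.23 CPM in KD mice. The AL mice, at 9.09, 17.3, 14.8 and 7.16 CPM, reached from the KD range into the DR range, and AL replicates 2 and 3 were the higher ones, as for Txnip. KD was lower than DR by a log2FC of -1.33 (SE 0.14, edgeR adjusted p = 5.6e-05). Arrdc4, a relative of Txnip that is also known to respond to glucose, had log2FCs of -0.09 on DR against AL (adjusted p = 0.754) and -0.05 on KD against DR (adjusted p = 0.862) in edgeR's test. Mlxip, Mlx and Mlxipl, which encode the factors that bind the carbohydrate response element, had log2FCs between -0.10 and 0.19 over the 3 comparisons, and 0 were called.

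Of 24 tested Nrf2 partners, regulators and further targets, 0 were called on DR against AL. At an unadjusted p under 0.05, 3 were higher and 1 lower there in edgeR's test, beside 18.0% of all genes. On KD against DR, 3 were called lower. These were the small Maf proteins Maff (log2FC -0.94, adjusted p = 0.0126) and Mafk (-0.51, adjusted p = 0.0253), which pair with Nrf2 on DNA, and Sesn1, a sestrin (-0.17, adjusted p = 0.0292). Maff was low, at 1.07 ± 0.253 CPM on KD and 2.05 ± 0.368 on DR (SD, n = 4 each). Mafg, the other small Maf of this list, was far more abundant and was not called. It ranged from 151.7 CPM in DR replicate 2 to 192.4 CPM in KD replicate 3. Its mean was highest on KD and lowest on DR, opposite to Maff and Mafk. Mafk passed in 3 and Sesn1 in 2 of the 8 fits that left out a mouse, and neither passed with all 12 libraries in 1 fit (adjusted p = 0.0516 and 0.0553 in edgeR).

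Of 14 tested oxidant-producing enzymes, Smox, spermine oxidase, was higher on DR than on AL (log2FC 0.25, adjusted p = 0.023) and lower on KD than on DR (-0.21, adjusted p = 0.0375) in edgeR's test. Xdh, xanthine dehydrogenase, was lower on KD than on DR, at 13.1 ± 1.64 against 21.1 ± 4.97 CPM (SD, n = 4 each), with a log2FC of -0.69 (edgeR adjusted p = 0.00721). Among 15 tested further glutathione S-transferases, Gstt2 was lower on KD than on DR (-0.50, adjusted p = 0.0172). Among 14 tested genes of cystine uptake and glutathione turnover, Oplah, 5-oxoprolinase, was lower (-0.20, adjusted p = 0.0352) and Lap3, leucine aminopeptidase, higher (0.20, adjusted p = 0.0388) on KD than on DR. Lap3 was not called with library size scaling, and 11.7% of the exonic bases of Oplah overlap other genes and it did not pass with all 12 libraries in 1 fit (edgeR adjusted p = 0.0537). Of 14 glutaredoxins, thioredoxin-like proteins and methionine sulfoxide reductases, 0 were called in any of the 3 comparisons in edgeR's test (1 higher on DR than on AL, 1 on KD against AL and 3 lower on KD than on DR at an unadjusted p under 0.05). Of the calls in these 8 lists, those of Selenom and Me1 on DR against AL and of Me1, Arrdc2 and Xdh on KD against DR were made in all 8 fits that left out a mouse, whereas Selenbp1 and Oplah passed in 2 and Lap3 in 1 of them on KD against DR. Smox passed in 5 of 8 on DR against AL and in 3 of 8 on KD against DR. Without DR replicate 3, Selenbp1 did not pass on DR against AL (log2FC 0.44, edgeR adjusted p = 0.0576). On KD against DR, neither Maff (-0.81, adjusted p = 0.051) nor Gstt2 (-0.43, adjusted p = 0.0643) then passed in edgeR's test. Without KD replicate 3, Selenom (-0.20, adjusted p = 0.0611) and Gstt2 (-0.44, adjusted p = 0.0663) did not pass on KD against DR in edgeR's test.

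**Figure D4:**
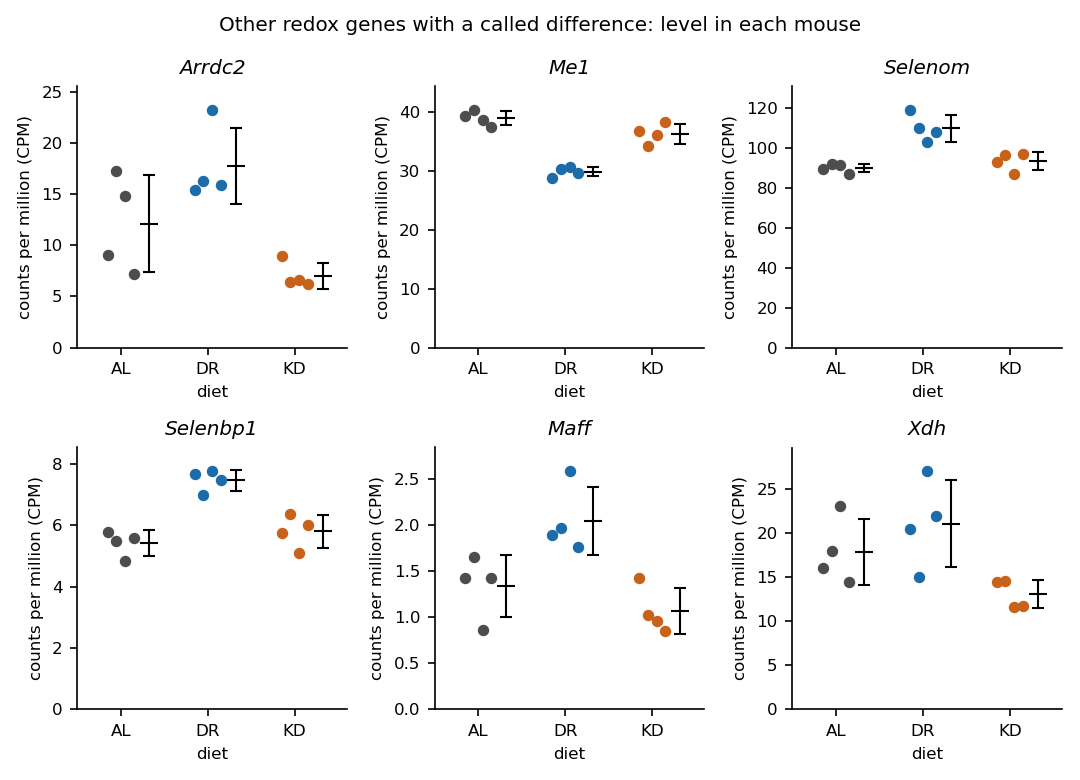
Level of Arrdc2, Me1, Selenom, Selenbp1, Maff and Xdh in each mouse on AL, DR and KD, in CPM with axes from 0; each dot is 1 mouse, and the bar is the mean ± SD of 4 mice. DR mice lie above the other diets for Selenom and Selenbp1 and below them for Me1, while the KD mice of Arrdc2, from 6.23 to 8.94 CPM, lie below all DR mice.

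Single libraries contributed unequally. DR replicate 1 had the highest level of the 12 libraries in 12 of the 34 genes (35.3%), beside 13.8% of the 15477 genes whose mean reached 1 CPM. AL replicate 3 had the lowest level in 9 of the 34 (26.5%), beside 11.1% of those genes. On DR against AL, Gpx3 alone of the 34 was called without any single one of the 4 DR replicates and without AL replicate 4. Gpx3 was called with Gstm1 without AL replicate 1, with Txnip without AL replicate 2 and with Gss without AL replicate 3.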

How the data were processed

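Libraries were made from poly(A) RNA with a kit that does not keep strand. Per the submitters' processing notes, the authors trimmed reads with Trimmomatic 0.39, aligned them with STAR 2.7.0f to GRCm38.p6 and counted them per gene with featureCounts of Subread 1.6.4. The deposited table holds raw counts of 54752 genes without normalization. Whether counting used strand is not given in the sources used here, and a gene is called uncertain where over 10% of its exonic bases overlap another gene. Symbols came from GENCODE release 21 for mouse, for 54723 genes. 1 listed gene, Nnt, matched more than 1 identifier and was not used.

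From these counts, AL and DR, AL and KD, and DR and KD were fitted separately, on 8 libraries each, with edgeR 4.0.16 in R 4.3.3 (filterByExpr with a minimum count of 10 and total of 15, TMM, quasi-likelihood test, Benjamini-Hochberg adjustment over all genes tested, threshold 0.05). Standard errors and 95% intervals of log2 fold changes came from the same fit. CPM were scaled with 1 set of TMM factors over 12 libraries. A mouse apart from its diet was sought by Dixon's test in 102 groups of 4, of which 0 passed its critical value of 0.829. Chance alone would give 5.1. With 4 values in a group the test finds only extreme cases, so it does not show that no mouse stood apart. Libraries of the same diet differed beyond sampling noise in all 18 pairs (chi-square per gene 4.95 to 11.6). This covers counting noise only and cannot tell separate mice from separate preparations. Each library was taken as 1 replicate. Alternatives were DESeq2 1.42.0, library size scaling, no filter on low counts, only genes over 10 CPM, all 12 libraries in 1 fit, and each mouse left out.

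All genes of the antioxidant list and of the further redox lists are accounted for. The antioxidant genes called in any comparison are given in every mouse, as are Gpx1 and Arrdc2, chosen for this after their values were seen, and of each further list at most 3 called genes are named, by smallest adjusted p. Arrdc4, Idh2, Mafg, Mlx, Mlxip and Mlxipl were also named after their values were seen. Some marker genes are not reported here. The genes and lists were chosen with earlier results of these data known.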

Additional observations from a re-analysis of the deposited data

How the results depend on the processing

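Directions of the called antioxidant genes did not reverse under any alternative run. Gpx3 was called on DR against AL and on KD against DR under every alternative that tested it, and Txnip was called on KD against DR under all of them. The calls of Gstm1 were lost in 7 of the 8 fits without a mouse in both comparisons, with its log2 fold change between 0.19 and 0.29 on DR against AL and between -0.23 and -0.14 on KD against DR. No paired analysis was possible because the labels number no replicates within a diet, and the numbers used here are names only.

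When single mice were left out, 1 to 2 antioxidant genes were called on DR against AL and 4 to 12 of the further redox genes on KD against DR. Over all genes, 235 to 712 were called on DR against AL, 0 to 6 on KD against AL and 467 to 946 on KD against DR. With DESeq2, 1012 genes were called on DR against AL and 10 on KD against AL. Without the filter on low counts, 1258, 118 and 1503 genes were called in the 3 comparisons, with 9 further redox genes on DR against AL and, on KD against AL, 1 antioxidant gene (Txnip, lower) and 2 further redox genes. With library size scaling the share of calls that were higher was 57.0% on DR against AL, beside 43.2% with TMM, and 37.9% on KD against DR, beside 49.2%. Without the filter, edgeR's adjusted p was far smaller for some genes, for Gpx3 7.5e-15 on DR against AL beside 0.00143 in the main fit. Calls made by that fit alone are therefore uncertain. The causes were not tested.

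At the lower end of the range, Gpx7, Hmox1, Nqo1 and Gpx8 had SDs within a diet of 0.28, 0.26, 0.21 and 0.16 on the log2 scale, beside 0.09 for Gstm1. The spread did not follow level alone, since it was 0.42 for Txnip and 0.32 for Gpx1, at means of 17.8 and 23.6 CPM. Differences of the size seen in Gstm1 may go undetected in genes with wide spread, and the smallest detectable difference was not tested.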
